A study of Mus musculus with 3 samples.

Results

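The nuclear respiratory chain genes are the genes of the cell nucleus that encode protein subunits of the mitochondrial complexes I, III, IV and V, with some of their assembly factors. They were chosen by symbol alone, with no measured value: protein-coding genes of GENCODE M21 outside the mitochondrial genome whose symbol begins with Nduf, Uqcr, Atp5 or Cox4 to Cox8. There were 89 such genes among 21827 nuclear protein-coding genes, and they lay on 19 chromosomes. By role they were 7 core and 29 supernumerary subunits of complex I, 8 subunits of complex III, 11 of complex IV, 16 of complex V, 10 assembly and other factors, and 8 isoforms known as tissue-restricted.

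Liver of mouse embryos at 13.5 days was studied by DNase-seq, an assay that finds open chromatin as DNA accessible to the nuclease DNase I. The 3 libraries are numbered by the labels as biological replicates 1, 2 and 3 and form 1 group without a control. All 3 come from mice labelled with the strain C57BL/6N,129 and the genotype WT with A20 YAC, a yeast artificial chromosome present in a single copy, and sex was not recorded. Each library has its own biosample under the same donor label, so the spread between libraries may be technical.

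Libraries differed in how much was called: between 34369 and 122281 peaks, and between 89836 and 342756 footprints, were listed, fewest in replicate 1 and most in replicate 2. The signal of a peak is the authors' value, scaled separately in each library, so levels are compared within a library or as percentiles. The tissue label was checked against markers. A promoter peak was present in every library for all 6 erythroid markers, as it was for 4 of 8 hepatoblast markers, a share close to the 51.4% of all genes, and Alb, the albumin gene, had no promoter peak in any library. None of 6 muscle markers and 1 of 4 germ line markers (Dazl) had a peak in all 3.

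The respiratory chain passes electrons from NADH and other donors through complexes I, III and IV to oxygen and pumps protons across the inner mitochondrial membrane, and complex V, the ATP synthase, uses that proton gradient to make ATP. A few subunits are encoded by mitochondrial DNA, and all others come from nuclear genes scattered over the chromosomes, whose transcription has to supply the parts together. The factors NRF1, GABPA (an ETS protein), YY1, SP1 and the oestrogen-related receptor ERRA are known for binding promoters of such genes. Fetal liver is the main site of red blood cell formation at this stage, besides holding the precursors of hepatocytes.

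The sites below are matches to the motif of NRF1, the factor whose matches in the members' promoters were most often in footprints, and they show cases with and without a footprint. A footprint is a short interval, called by the authors, that is protected from cutting within open chromatin. Each line gives 30 bases of mm10 read 5′ to 3′ on the strand of the gene, and capitals mark a match to the NRF1 motif, GCGCA followed by any base and GCGC, on either strand. The first 6 matches lay in a footprint in all 3 libraries. The first Uqcrc1 match listed after them was in a footprint in 1 library and its neighbour in all 3, and the Ndufs7 match was in none.
Ndufa6 (chr15:82354249-82354278): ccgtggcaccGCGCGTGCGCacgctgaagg
Ndufb4 (chr16:37654428-37654457): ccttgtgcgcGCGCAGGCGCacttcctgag
Ndufs6 (chr13:73328479-73328508): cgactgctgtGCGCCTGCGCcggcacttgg
Cox6a1 (chr5:115349056-115349085): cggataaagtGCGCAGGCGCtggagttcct
Atp5c1 (chr2:10080430-10080459): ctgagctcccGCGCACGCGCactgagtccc
Atp5j (chr16:84836303-84836332): cttataaggtGCGCATGCGCacttgtggag
Uqcrc1, first match (chr9:108936643-108936672): cttccttacaGCGCTTGCGCctcagactcc
Uqcrc1, neighbouring match (chr9:108936668-108936697): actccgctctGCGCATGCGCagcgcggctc
Ndufs7 (chr10:80249080-80249109): ttgctttagcGCGCAAGCGCacttcacaat
Uqcrc1 lies on the plus strand, as does Ndufs7, and the others lie on the minus strand.

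Promoters of the respiratory chain genes were open at nearly all members. A promoter here is the 1000 bp on either side of any transcription start site (TSS) of a protein-coding transcript, and it counts as open where a listed peak overlaps it. A promoter peak was found for 83 of the 89 genes in replicate 1, against 54% of all protein-coding genes. In replicate 2 it was found for 85 (67.3% of all genes) and in replicate 3 for 83 (56.4% of all genes). In all 3 libraries 83 of the 89 were open, a share of 93.3% beside 51.4% of all genes, and 4 had no peak in any library, beside 32.1% of all genes. The same number, 83, had a peak on the stricter list of every library, where 46.7% of all genes did.

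The exceptions all belonged to the tissue-restricted isoforms. All 81 other genes were open in every library, in each complex and among the assembly factors, whereas 2 of the 8 restricted isoforms were. The background for such a call is the 51.4% of all genes given above. With 8 genes the restricted isoforms are too few to rank against that share, and the difference was not tested. Like the other lists here, theirs was drawn up with earlier results of these data known. In bulk tissue, fewer cells with an open promoter and less open chromatin per cell cannot be told apart.

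In median rank the open promoters of the members stood somewhat above open promoters at large, a difference given without a test. The percentile of a gene is the share, in percent, of the 21827 genes whose promoter signal was lower in the same library, and a gene with no peak has 0. The median over the 89 genes was 80.1 in replicate 1, 79.5 in replicate 2 and 80.3 in replicate 3, and 79.98 ± 0.381 (SD, n = 3) on average, while the median of all genes was 49.9. Since genes without a peak share the value 0, any gene with a peak starts high, so the like comparison is among genes open in all 3 libraries. There the median was 81.3, 81.0 and 81.0 for the 83 members and 74.3, 74.3 and 74.2 for all 11223 genes. A mean percentile of at least 90 was reached by 18 members, beside 9.49% of all genes, which is 21.7% of the open members beside 18.5% of open genes, and one of at least 99 by 0, beside 0.573% of all genes.

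Classes of subunits differed little in this rank. The median percentile, as a mean over the libraries, was 83.7 for the nuclear-encoded complex I core, which carries out electron transfer, and 81.0 for the supernumerary subunits. It was 81.9 for complex III, 77.4 for complex IV, 82.2 for complex V and 84.4 for assembly and other factors. The restricted isoforms had 7.39. Within each class the members spread far wider than the class medians did, from 57.0 to 96.1 among the supernumerary subunits of complex I, for example.

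**Figure D1:**
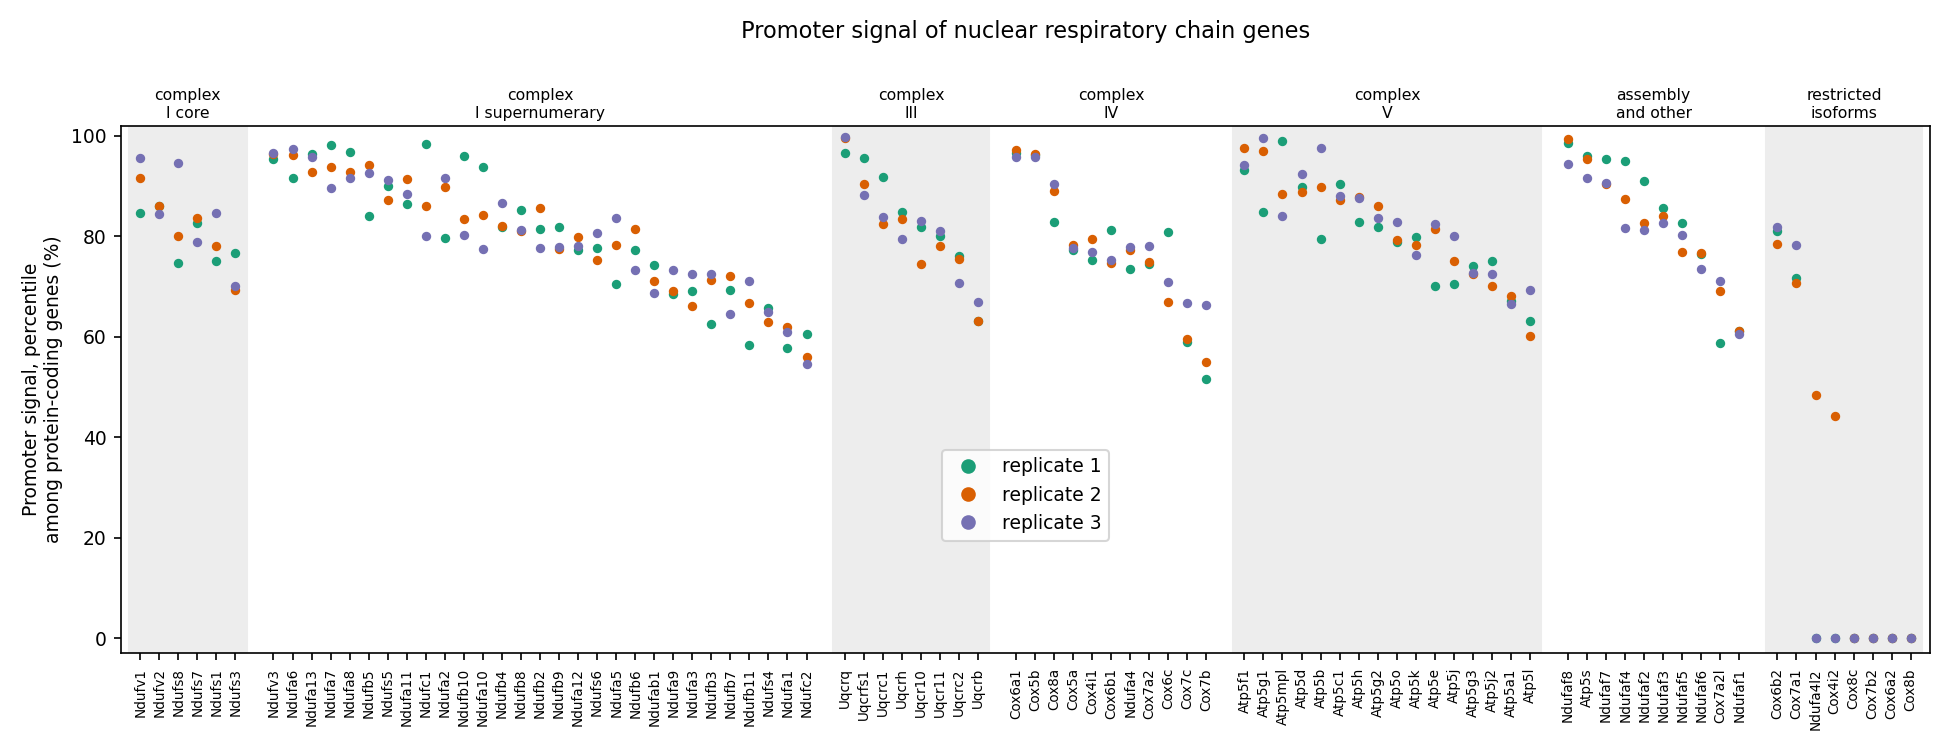
Promoter signal of 88 of the 89 genes as a percentile among protein-coding genes (vertical axis, in percent; 0 means no listed peak), 1 point per library, with genes grouped by role and ordered by their mean. The 80 genes shown outside the restricted isoforms lie above 50 in all 3 libraries, and 6 of the 8 restricted isoforms lie at 0 in at least 2 libraries.

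Complex I, the NADH dehydrogenase, had its strongest promoters among supernumerary subunits, which surround the catalytic core. Ndufv3, an accessory subunit of the NADH-oxidising arm, had peak signals of 6.51, 22.1 and 18.1 in replicates 1, 2 and 3 and a mean percentile of 96.1 ± 0.650 (SD, n = 3). Ndufa6 had 5.60, 21.6 and 19.5, at percentile 95.04 ± 3.00. Ndufa7 had 7.74, 19.1 and 11.5, at percentile 93.9 ± 4.36, but peaks nearest to its own TSS had 0, 0.524 and 0, with the start of Rps28 10 bp away. In signal units the lowest value of these 3 genes was in replicate 1 each time, which held for 80 of the 83 open members; signals are scaled separately in each library.

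Ndufa13, also known as the cell death regulator GRIM-19, shared its window with other promoters. Its highest signal was 6.82, 17.9 and 16.9 (percentile 94.98 ± 1.89), but that peak lay 732.5, 732.5 and 772.5 bp upstream of its TSS, nearer to its neighbours Yjefn3 and Tssk6. Peaks nearest to the Ndufa13 TSS itself had signals of 0.974 and 1.54 in replicates 1 and 2 and were not listed in replicate 3. For this gene the rank is that of a cluster of promoters and not of its own TSS.

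The weakest open promoters of complex I also belonged to supernumerary subunits. Ndufc2, a subunit of the membrane arm, had signals of 1.68, 2.04 and 0.955 and the lowest mean percentile of any member open in all 3 libraries, 57.0 ± 3.05 (SD, n = 3). Ndufa1 had 1.39, 3.67 and 1.90, at percentile 60.1 ± 2.18, and 0.336, 0.236 and 0 from peaks nearest to its own TSS, with Rnf113a1 82 bp away. Ndufs4, whose loss causes a fatal encephalopathy in mice, had 2.21, 3.98 and 2.71, at percentile 64.6 ± 1.48. None of these 3 overlapped the top 3 in any library. They were picked for low and high mean percentiles over the same libraries, so this separation is no independent result. The 7 core subunits kept a narrower range, between a mean percentile of 72.0 for Ndufs3 and 90.6 for Ndufv1, the subunit that binds NADH, which were named after their values were seen. With peaks given to the nearest TSS, Ndufs3 had 0, 0 and 0.429.

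Complex III, the cytochrome c reductase, contained the highest ranking promoter of all 89. Uqcrq, a small subunit near the ubiquinone site, had signals of 6.83, 31.6 and 30.5, at percentile 98.6 ± 1.83 (SD, n = 3), with the peak midpoint 253.5, 253.5 and 243.5 bp upstream of its nearest TSS. No opposite-strand coding gene started within 1000 bp of it. Uqcrfs1, the Rieske iron-sulphur protein, had 6.56, 15.9 and 10.6 (percentile 91.3 ± 3.78). Uqcrc1, a core protein, had 5.64, 11.3 and 8.38 (percentile 86.1 ± 5.05).

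At the other end of complex III, Uqcrb had signals of 1.95, 4.07 and 3.15 (percentile 64.5 ± 2.13). Uqcrc2, the partner of Uqcrc1 in the core of the complex, had 3.36, 8.23 and 4.04 (percentile 74.1 ± 2.93). Uqcr11 had 3.84, 9.26 and 7.20 (percentile 79.7 ± 1.55). Uqcrc1 ranked above Uqcrc2 in each library, a pair named after its values were seen. Both were picked by mean percentile over these libraries, from the high and low ends of complex III. Their shared direction is thus partly set by that choice.

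Complex IV, cytochrome c oxidase, had 2 promoters in the top 10. Cox6a1, the isoform of subunit VIa expressed outside muscle, had signals of 6.85, 23.2 and 17.1 (percentile 96.5 ± 0.637). Cox5b, a zinc-binding subunit on the matrix side, had 6.72, 21.8 and 17.1 (percentile 96.1 ± 0.246), the smallest spread over libraries among the 83 open genes. Cox8a, the widely expressed isoform of subunit VIII, followed with 4.20, 14.9 and 12.2 (percentile 87.5 ± 4.01).

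The low end of complex IV was held by small membrane subunits. Cox7b had signals of 0.829, 1.80 and 3.04 (percentile 57.7 ± 7.75), and in replicates 1 and 2 these were the lowest of all members open in 3 libraries. Cox7c had 1.52, 3.04 and 3.13 (percentile 61.8 ± 4.31). Cox6c had 3.93, 5.33 and 4.11 (percentile 72.9 ± 7.13). Cox6a1 exceeded Cox7b 8.27-fold, 12.9-fold and 5.62-fold in replicates 1, 2 and 3, although both encode parts of the same enzyme.

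Complex V, the ATP synthase, had members at both ends. Atp5f1, subunit b of the stalk that holds the enzyme's head in place, had 5.93, 24.0 and 15.1 (percentile 94.98 ± 2.24), from a peak 778.5, 758.5 and 728.5 bp downstream of its annotated TSS, nearest to the start of Wdr77 on the opposite strand. No listed peak was nearest to the annotated Atp5f1 TSS in any library. Atp5g1, 1 of 3 genes for the same subunit c of the proton-driven ring, had 4.43, 23.1 and 27.5 (percentile 93.8 ± 7.90). Atp5mpl, a small proteolipid, had 8.46, 14.5 and 8.47 (percentile 90.5 ± 7.70), the highest signal of any member in replicate 1.

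The lowest complex V promoters were those of Atp5l (subunit g), Atp5a1 (the alpha subunit) and Atp5j2 (subunit f). Atp5l had signals of 1.94, 3.19 and 3.66 (percentile 64.2 ± 4.69). Atp5a1 had 2.35, 5.71 and 3.07 (percentile 67.2 ± 0.801). Atp5j2 had 3.25, 6.34 and 4.52 (percentile 72.6 ± 2.52). The alpha subunit thus stood below its catalytic partner, the beta subunit Atp5b (3.75, 15.6 and 20.1, percentile 89.0 ± 9.10), in all 3 libraries, a pair named after its values were seen.

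Assembly and other factors, which help to build the complexes or to join them, had the highest class median as a mean over the libraries. That mean was 84.4 ± 3.46 (SD, n = 3), from 88.2, 83.4 and 81.5 in replicates 1, 2 and 3. The complex I core, at 82.7, 83.7 and 84.6, was above this class in replicates 2 and 3. Ndufaf8, a complex I assembly factor, had 8.05, 30.8 and 15.4 (percentile 97.5 ± 2.66). Atp5s had 6.67, 20.7 and 12.9 (percentile 94.3 ± 2.35). Ndufaf7, a methyltransferase needed to build complex I, had 6.53, 15.9 and 12.2 (percentile 92.1 ± 2.88). Peaks nearest to the gene's own TSS had signals of 1.69, 0 and 1.68 for Ndufaf8, whose start lies 197 bp from that of Tepsin, and of 6.67, 0 and 0 for Atp5s, which also has an opposite-strand partner. For both, the rank is that of a shared window.

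Lowest among these factors was Ndufaf1, with 1.75, 3.45 and 1.85 (percentile 60.9 ± 0.328). Cox7a2l, which takes part in joining complexes III and IV, had 1.50, 6.04 and 4.13 (percentile 66.3 ± 6.60). Ndufaf6 had 3.40, 8.80 and 4.74 (percentile 75.6 ± 1.82).

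The order of the members was shared between libraries. Across the 83 open genes promoter signal had a Spearman correlation of 0.867 for replicates 1 and 2, 0.750 for replicates 1 and 3, and 0.904 for replicates 2 and 3, given as a description, since genes are not replicates and the libraries share tissue and annotation. The percentile varied over the 3 libraries with an SD between 0.246 and 10.4 and a median of 2.81, so neighbours in the order often did not differ beyond their spread. Ndufs8 had the widest spread, with percentiles of 74.6, 80.0 and 94.6. Highest over lowest, the signal of the 83 genes spanned 10.2-fold, 17.6-fold and 31.96-fold in replicates 1, 2 and 3.

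The clearest division among the 89 genes ran between paralogs that make the same subunit. Several complex IV subunits exist as a widely expressed isoform and as an isoform known from heart and skeletal muscle (Cox6a2, Cox7a1, Cox8b), testis (Cox6b2, Cox7b2, Cox8c) or lung (Cox4i2), and Ndufa4l2 is a paralog of Ndufa4 known from hypoxic cells. Cox6a2, Cox8b, Cox7b2 and Cox8c had no promoter peak in any library. Their windows held 0 bases listed at a false discovery rate of at most 0.05 in each library, while the median over all genes was 129, 696 and 201 bases. No more than 8.78% of the 31-base words in any of these 4 windows occurred again elsewhere in the genome, which is where reads can fail to be placed.

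The widely expressed paralogs of these 4 genes were open throughout. Cox6a1 and Cox8a had the values given above, and Cox7b was weak but listed in every library. Among the other pairs, Cox4i1 had signals of 3.26, 9.86 and 5.80 (percentile 77.2 ± 2.17), whereas Cox4i2 had 1 peak, in replicate 2, with a signal of 0.580. The Cox4i1 window is shared with Emc8, 101 bp away, and peaks nearest to the Cox4i1 TSS had 0, 9.86 and 0, so by that count both paralogs had a peak in replicate 2 alone. Ndufa4 had 3.06, 9.03 and 6.09 (percentile 76.3 ± 2.37), whereas Ndufa4l2 had 1 peak, in replicate 2, with a signal of 0.847 and its midpoint 1024 bp upstream of the TSS. Replicate 2 had the most peaks listed, and neither gene had a peak on its stricter list.

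Cox6b2 and Cox7a1 went against this division. Cox6b2, the testis isoform of subunit VIb, had signals of 3.96, 9.48 and 7.55 (percentile 80.5 ± 1.74), and Cox6b1, its widely expressed paralog, had 3.99, 7.93 and 5.27 (percentile 77.1 ± 3.67). Cox6b2 was above Cox6b1 in replicates 2 and 3 and below it in replicate 1, so their order was not stable. Cox7a1, the muscle isoform of subunit VIIa, had 2.86, 6.54 and 6.20 (percentile 73.5 ± 4.08), and Cox7a2 had 3.17, 8.04 and 6.17 (percentile 75.8 ± 2.00).

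For these exceptions the peak lay at the gene's own start. The midpoint of the highest peak was 36.5, 36.5 and 26.5 bp upstream of the nearest TSS of Cox6b2 and 13.5, 13.5 and 23.5 bp upstream of that of Cox7a1, and no other annotated gene started within 2000 bp of either. Markers of the tissues in which these isoforms are best known gave mixed values. Of the 6 muscle markers, Myod1, Myh6, Myh7 and Actc1 were at 0 in all 3 libraries, and Myog and Ckm had a peak in replicate 2 alone, with signals of 0.316 and 0.295. The summed signal of the muscle list was 0, 0.611 and 0. Of the 4 germ line markers, Tnp1 was at 0 throughout, Ddx4 had 0.424 in replicate 2 alone, Sycp3 had 0.511 and 0.353 in replicates 2 and 3, and Dazl had 4.79, 10.4 and 6.31, out of a summed signal of 4.79, 11.4 and 6.67 for that list. Whether few cells of another type add to the Cox6b2 or Cox7a1 peak was not tested.

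The 3 genes for subunit c of ATP synthase, which encode the same mature protein, were all open. Their order was Atp5g1, Atp5g2, Atp5g3 in each library. Atp5g2 had signals of 4.05, 13.2 and 8.30 (percentile 83.9 ± 2.17) and Atp5g3 had 3.12, 7.21 and 4.54 (percentile 73.1 ± 0.871). Atp5g1 and Atp5g2 were close in replicate 1, at percentiles of 84.8 and 81.8, and apart in replicate 3, at 99.5 and 83.7.

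**Figure D2:**
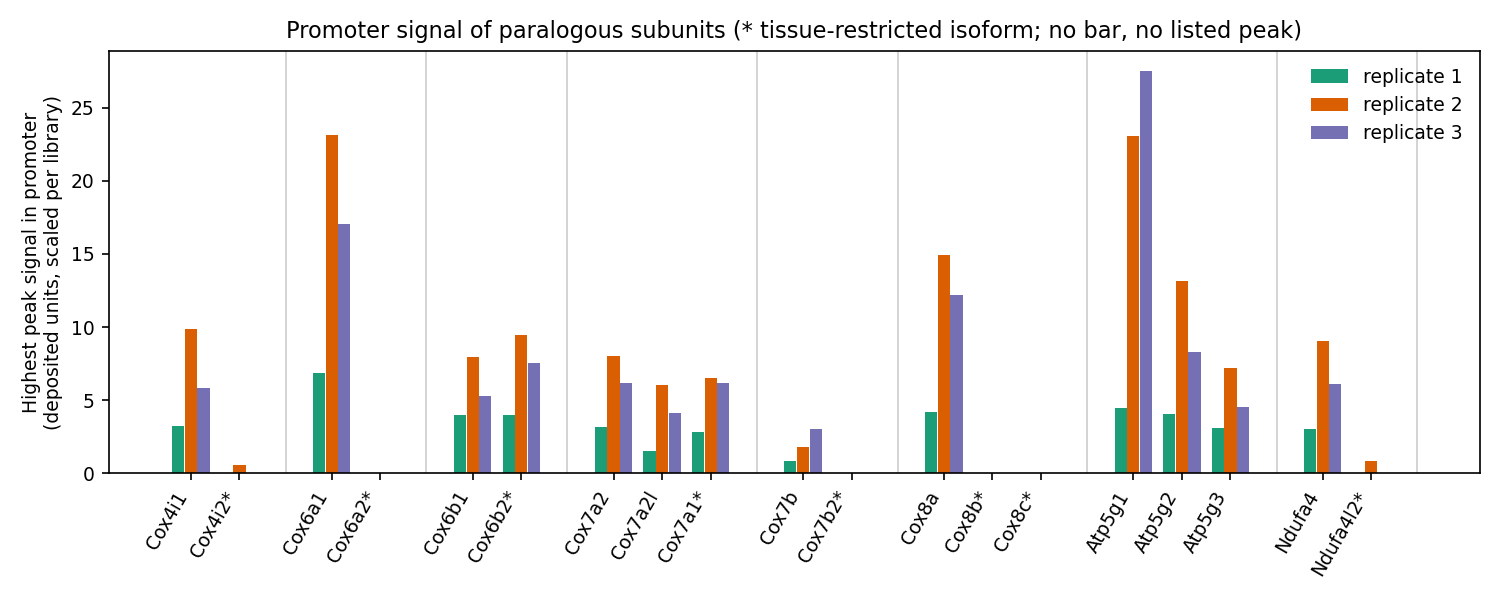
Highest peak signal in the promoter (vertical axis, in the authors' units, scaled separately in each library) of genes that encode the same subunit, 1 bar per library; an asterisk marks the tissue-restricted isoforms, and no bar means no listed peak. Cox6b2 and Cox7a1 have bars in all 3 libraries beside their paralogs, Cox4i2 and Ndufa4l2 have 1 short bar each, and Cox6a2, Cox7b2, Cox8b and Cox8c have none.

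Several restricted isoforms also had few CpGs at the promoter. CpG dinucleotides, the substrate of DNA methylation, are dense at promoters that are active in many tissues. In the 300 bases from 250 before to 50 after the most upstream coding TSS, members other than the restricted isoforms had a median of 18 CpGs, the restricted isoforms 8, and all protein-coding genes 12. Mitochondrial ribosomal protein genes had 18 and proteasome subunit genes 18.5. Below are the 120 bases immediately upstream of the TSS of 3 pairs of paralogs, read 5′ to 3′ on the strand of the gene in mm10, with every CpG in capitals. They are shown to set a widely expressed isoform beside a muscle isoform, which was without a peak in the first 2 pairs and open in the third.
Cox6a1, open (chr5:115348982-115349101, minus strand): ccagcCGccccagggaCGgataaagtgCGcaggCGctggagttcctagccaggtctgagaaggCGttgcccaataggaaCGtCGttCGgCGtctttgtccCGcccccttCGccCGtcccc
Cox6a2, no peak (chr7:128206388-128206507, minus strand): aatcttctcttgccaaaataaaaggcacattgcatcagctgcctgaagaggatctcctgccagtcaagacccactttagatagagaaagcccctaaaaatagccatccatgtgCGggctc
Cox8a, open (chr19:7217617-7217736, minus strand): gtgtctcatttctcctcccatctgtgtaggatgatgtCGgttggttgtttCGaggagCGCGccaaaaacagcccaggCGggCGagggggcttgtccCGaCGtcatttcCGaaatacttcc
Cox8b, no peak (chr7:140900447-140900566, minus strand): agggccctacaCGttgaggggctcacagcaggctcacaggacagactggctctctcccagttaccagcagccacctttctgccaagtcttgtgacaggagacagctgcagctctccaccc
Cox7a2, open (chr9:79759879-79759998, minus strand): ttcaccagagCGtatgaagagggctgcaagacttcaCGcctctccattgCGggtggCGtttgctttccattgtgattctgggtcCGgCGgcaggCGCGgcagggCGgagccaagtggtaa
Cox7a1, open (chr7:30184024-30184143, plus strand): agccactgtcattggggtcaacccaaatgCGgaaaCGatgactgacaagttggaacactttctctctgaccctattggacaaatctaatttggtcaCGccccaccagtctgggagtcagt

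In these stretches Cox6a1 held 12 CpGs and Cox6a2 held 1. Cox8a held 9 and Cox8b held 1. Cox7a2 held 9 and Cox7a1, open in all 3 libraries, held 3. Over the 300 bases the restricted isoforms ranged from 2 CpGs (Cox6a2 and Cox8b) to 16 (Cox4i2), and the open Cox6b2 had 10, as did Cox7b2 and Cox8c, which had no peak. Outside the restricted isoforms, 8 members had at most 8 CpGs, and all 8 were open in all 3 libraries. Of the 9198 protein-coding genes with at most 8 CpGs, 14.2% were.

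CpGs were counted at the most upstream coding TSS, which for some genes, such as Atp5j2, Ndufa5 and Atp5f1, is not where the peak lay. Across the 83 open members the Spearman correlation of CpG count and promoter signal was 0.356, 0.429 and 0.344 in replicates 1, 2 and 3, a description over genes of the same libraries.

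Promoters of the respiratory chain were often shared with another gene. An opposite-strand TSS of another protein-coding gene lay within 1000 bp for 28 of the 89 genes, or 31.5%, against 10.5% of all genes. Among genes open in all 3 libraries the shares were 33.7% of 83 and 18.6% of 11223. Among mitochondrial ribosomal protein genes the share was 41.0% of 78, and among proteasome subunit genes 22.5% of 40. It was 12 of 29 for supernumerary subunits of complex I, 5 of 10 for assembly and other factors, 1 of 11 for complex IV and 0 of 8 for the restricted isoforms.

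The partners were of many kinds, and a few pairs are given as examples. Ndufs6 and Mrpl36 started 29 bp apart and Ndufb5 and Mrpl47 76 bp apart, both partners encoding mitochondrial ribosomal proteins. The start of Ndufa7 lay 10 bp from that of Rps28, of the cytosolic ribosome, and the start of Ndufs1 lay 3 bp from that of Eef1b2, a translation elongation factor. The nearest starts of Atp5j, which encodes coupling factor F6 of ATP synthase, and Gabpa lay 379 bp apart, and GABPA is a known regulator of respiratory chain genes. These pairs were chosen after the distances were seen. Other partners included Fam126b at Ndufb3 and Kctd2 at Atp5h.

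At such pairs a peak cannot be given to 1 gene. All 28 were open in all 3 libraries, but where a peak counted only for the gene with the nearest TSS, 14 members lost a peak in at least 1 library, and all 14 had such a partner. The number open in all 3 then fell from 83 to 69, while the share of all genes fell from 51.4% to 47.5%, and the restricted isoforms stayed at 2. The 55 open members without a partner had a median mean percentile of 80.5 and the 28 with one 81.3, so the rank of the group was about the same in both.

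Open chromatin at the members was centred on the start site. The midpoint of the highest promoter peak had a median position of 16.5, 17.5 and 21.5 bp upstream of the nearest TSS in replicates 1, 2 and 3. It lay within 100 bp of a TSS for 80.7%, 77.6% and 80.7% of the members with a peak, and for 62.9%, 59.985% and 64.7% of all such genes. The window held a median of 686, 1166 and 822 bases at a false discovery rate of at most 0.05, against 129, 696 and 201 over all genes. Among genes open in all 3 libraries the medians were close, at 701, 1198 and 835 for the members and 718, 1255 and 825 for all. The highest peak lay over 300 bp from a TSS of the gene in every library for 5 members, Ndufa11, Ndufa13, Uqcrh, Atp5f1 and Atp5j, and each of these has an opposite-strand partner.

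Footprints were found at the promoters that had peaks. At least 1 lay in the window of 83, 85 and 83 members, where 51.8%, 66% and 54.2% of all genes had one. In all 3 libraries this held for 83 members, beside 49.5% of all genes. The median number per window was 5, 10 and 7, with between 1 and 15, 5 and 28, and 2 and 15 among the 83 open genes. Per kilobase of window the members had 2.50, 5.20 and 3.03 footprints and all genes had 1.16, 2.94 and 1.49.

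Among genes open in all 3 libraries the number of footprints was about the same, with a median of 6, 11 and 7 for the members and 5, 12 and 7 for all. Their position about the start site differed between libraries. In the 50 bp just upstream of the TSS, replicate 1 had 1.04 footprints per member and 0.731 per open gene at large. Replicate 3 had 0.928 against 0.819, and replicate 2 had 0.988 against 0.916. From 50 to 100 bp downstream the values were 0.663 against 0.406 in replicate 1, 1.05 against 0.909 in replicate 2 and 0.880 against 0.561 in replicate 3. The members were higher in both bins in each library, by the least in replicate 2. From 100 to 50 bp upstream they were higher in replicates 1 (0.771 against 0.649) and 3 (0.807 against 0.736) and lower in replicate 2 (0.819 against 0.840).

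**Figure D3:**
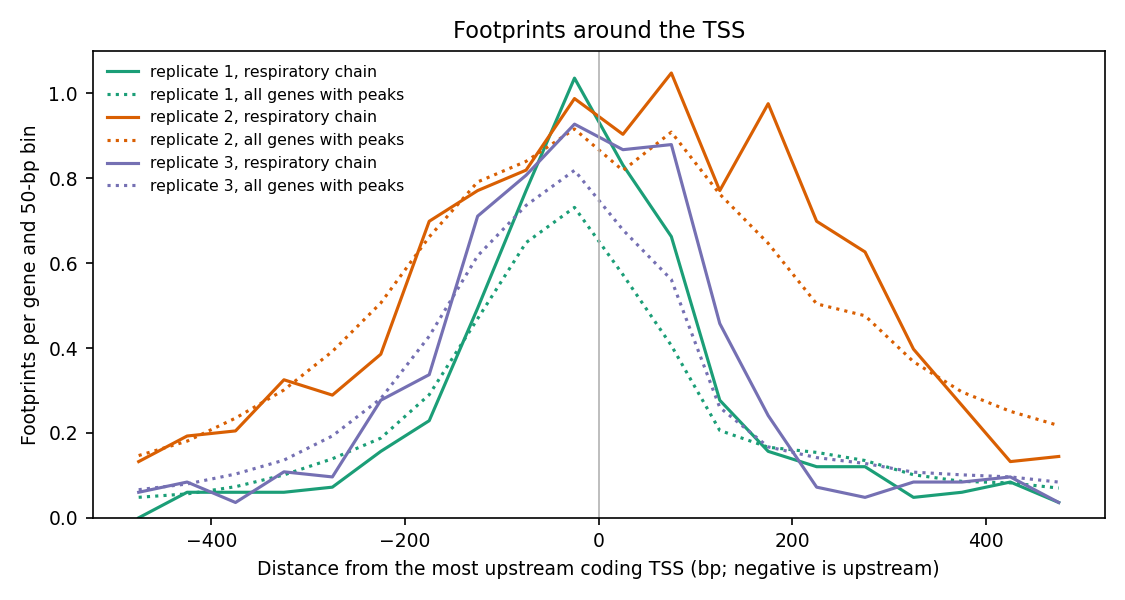
Footprints per gene in bins of 50 bp (vertical axis) by distance from the most upstream coding TSS (horizontal axis, in bp), for the 83 members open in all 3 libraries (solid) and all 11223 protein-coding genes open in all 3 (dotted), 1 colour per library. All 6 curves are high near the TSS, and the solid curves lie above the dotted ones from the TSS to 100 bp downstream in every library.

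NRF1 matches were the most frequent in these footprints. NRF1, nuclear respiratory factor 1, is named for its binding to respiratory chain promoters. A match to its motif lay in a promoter footprint, extended by 5 bp on each side, in all 3 libraries at 22 of the 89 genes, or 24.7%, against 6.84% of all genes. Since footprints need open chromatin, the like comparison is among genes with a peak in all 3 libraries, where it was 26.5% of 83 against 13.3% of 11223. The reversed string CGCGNACGCG, which has the same base composition but more CpGs, was in such footprints at 1 member, or 1.12%, against 0.976% of all genes. Among genes open in all 3 libraries this string was at 1.20% of members against 1.90%. In the fixed window of 300 bases, which uses no footprint, NRF1 matched at 14 members, or 15.7%, against 6.17% of all genes. Among genes open in all 3 libraries it matched there at 16.9% of the members against 11.2%. The reversed string matched in that window at 0 members and 1.21% of all genes. It was thus rarer with no footprint required, and its low counts in footprints are no like control for NRF1.

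The 22 genes came from every complex, with 1 of complex IV (Cox6a1) and 1 of complex III (Uqcrc1). Complex V had 8: Atp5c1, Atp5g2, Atp5g3, Atp5h, Atp5j, Atp5k, Atp5mpl and Atp5o. Complex I had 10: Ndufa5, Ndufa6, Ndufa8, Ndufa11, Ndufa13, Ndufb4, Ndufb7, Ndufs5, Ndufs6 and Ndufs8. Ndufaf4 and Ndufaf5 are assembly factors. Of the restricted isoforms, 0 had such a match in a footprint of all 3 libraries. These genes are named by the motif match and not by their signal.

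Counted by site, 28 of 32 NRF1 matches in the windows of the 83 open genes lay in a footprint in all 3 libraries, or 87.5%. At all 11223 open genes this held for 1491 of 2239 matches, or 66.6%. The 28 sites had a median position of 40 bp upstream of the nearest coding TSS of the gene, and 23 lay within 200 bp of it. Ndufb4 and Ndufa13 had 3 such sites each, and Atp5g2 and Cox6a1 had 2 each. The sites of Ndufa13 lay between 625.5 and 847.5 bp upstream, under the peak nearer to its neighbours, and that of Atp5j lay 692.5 bp upstream.

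Of the 4 NRF1 matches outside this group, 3 were in a footprint in no library, at Ndufs7, Ndufa8 and Ndufb11, and the first Uqcrc1 match shown above was in a footprint in replicate 3 alone. Ndufa8 and Uqcrc1 each had another match that was in a footprint in all 3. The Ndufs7 match lay 26.5 bp upstream of its TSS, at a promoter with signals of 4.17, 11.9 and 6.42.

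YY1 is known both for activating and for repressing promoters. Its motif ANATGGCG lay in a footprint of all 3 libraries at 6 members, among them Ndufb11, Uqcrb, Uqcrh, Atp5b and Atp5g1, or 6.74%, against 1.68% of all genes, and among genes open in all 3 libraries at 7.23% of members against 3.26%. Without replicate 1 the count was 14, so that library sets it. By site, 7 of 34 matches were in footprints of all 3, or 20.6%, against 11.6% at all open genes. The 300-base window held a match at 10 members, or 11.2%, against 4.32% of all genes, and at 10.8% of open members against 7.12% of open genes. Uqcrh carried 2 of the 7 sites and also the single ETS match (CCGGAAGT) in a footprint of all 3 libraries. They are shown because Uqcrh was the only member with matches to more than 1 of NRF1, ETS and YY1 in such footprints, with the motif in capitals on the minus strand.
Uqcrh, YY1 (chr4:116075350-116075379): cacccgcgggcCGCCATCTtgaagaggtca
Uqcrh, YY1 (chr4:116075396-116075425): gcctcgggcgcCGCCATCTtggggaggtgc
Uqcrh, ETS (chr4:116075063-116075092): gagtatgccgcACTTCCGGccaggtcgccg

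ETS matches lay in footprints of all 3 libraries at 1 member, or 1.12%, against 1.72% of all genes, and among genes open in all 3 libraries at 1.20% of members against 3.34%. The count depended on the libraries and lay between 2 and 4 with any 1 of them left out. By site 1 of 16 matches was held by a footprint in all 3 libraries, against 18.8% at all open genes. In the 300-base window ETS matched at 6 members, or 6.74%, against 4.93% of all genes. Among genes open in all 3 libraries the order turned, with 7.23% of the members against 8.81%.

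The other motifs gave small counts or changed order with the comparison. GGGGCGGGG, bound by SP and KLF factors, was in footprints of all 3 libraries at 12 members, or 13.5%, against 10.3% of all genes. Among genes open in all 3 libraries the order turned, with 14.5% of the members against 20.1%. TGACGTCA, bound by CREB and ATF factors, was so at 4 members (Ndufa10, Ndufb2, Uqcrfs1 and Atp5d) against 1.69% of all genes, and at 4.82% of open members against 3.29% of open genes. CCAATCA (NFY) was at 2 members against 1.36%, CACGTG (E-box) at 1 against 1.59%, and the ZNF143 motif (ACTACAA, any base, TCC) at 1 against 0.147%. With genes open in all 3 libraries as background, the order for CCAATCA turned, at 2.41% of members against 2.65%. CACGTG was at 1.20% there against 3.09%, and the ZNF143 motif at 1.20% against 0.285%. At the 1 member with the ZNF143 motif, Uqcr10, no single match was in a footprint in all 3 libraries, so different matches were held in different libraries.

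AGATAA, bound by the erythroid factor GATA1, was in a footprint of all 3 libraries at 0 members, against 0.252% of all genes. By site this held for 0 of 94 matches in the windows of the open members, against 0.452% at all open genes. A count of 0 is near that share. TCAAGGTCA, bound by ERRA, was at 0, against 0.00458% of all genes. In the 300-base window, with no footprint required, AGATAA matched at 9 members (9.93% of all genes), CACGTG at 8 (7.77%), CCAATCA at 8 (9.26%), GGGGCGGGG at 10 (15.3%) and TGACGTCA at 5 (2.5% of all genes). There TCAAGGTCA matched at 1 member (0.444%) and the ZNF143 motif at 3 (1.46%). Among genes open in all 3 libraries, AGATAA matched in that window at 10.8% of members against 6.02%, and TGACGTCA at 6.02% against 3.83%. TCAAGGTCA was at 1.20% against 0.339% and the ZNF143 motif at 3.61% against 2.63%. CACGTG (8.43% against 10.4%), CCAATCA (7.23% against 11.0%) and GGGGCGGGG (12.0% against 23.5%) were lower at the members. A match describes letters in an interval and shows neither binding nor its absence.

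Counts of motif matches ranged widely over the complexes. A match to NRF1, ETS or YY1 in footprints of all 3 libraries was present at 28 of the 89 genes, against 9.77% of all genes, and at 33.7% of the open members against 19.0% of open genes. It was present at 10 of 16 complex V genes, 10 of 29 supernumerary and 2 of 7 core genes of complex I, 3 of 8 of complex III, 2 of 10 assembly and other factors, and 1 of 11 of complex IV. Mitochondrial ribosomal protein genes had such a match at 25 of 78, or 32.1%, close to the 31.5% of the respiratory chain genes. Proteasome subunit genes had one at 10 of 40, or 25%. For NRF1 alone the shares were 21.8% (mitochondrial ribosomal), 17.5% (proteasome) and 24.7% (respiratory chain). In the fixed window, which uses no footprint, NRF1 matched at 15.4%, 15% and 15.7% in the same order. NRF1, ETS or YY1 matched there at 42.3%, 42.5% and 31.5%. Such matches were thus not limited to the respiratory chain genes. Differences between these groups were not tested.

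**Figure D4:**
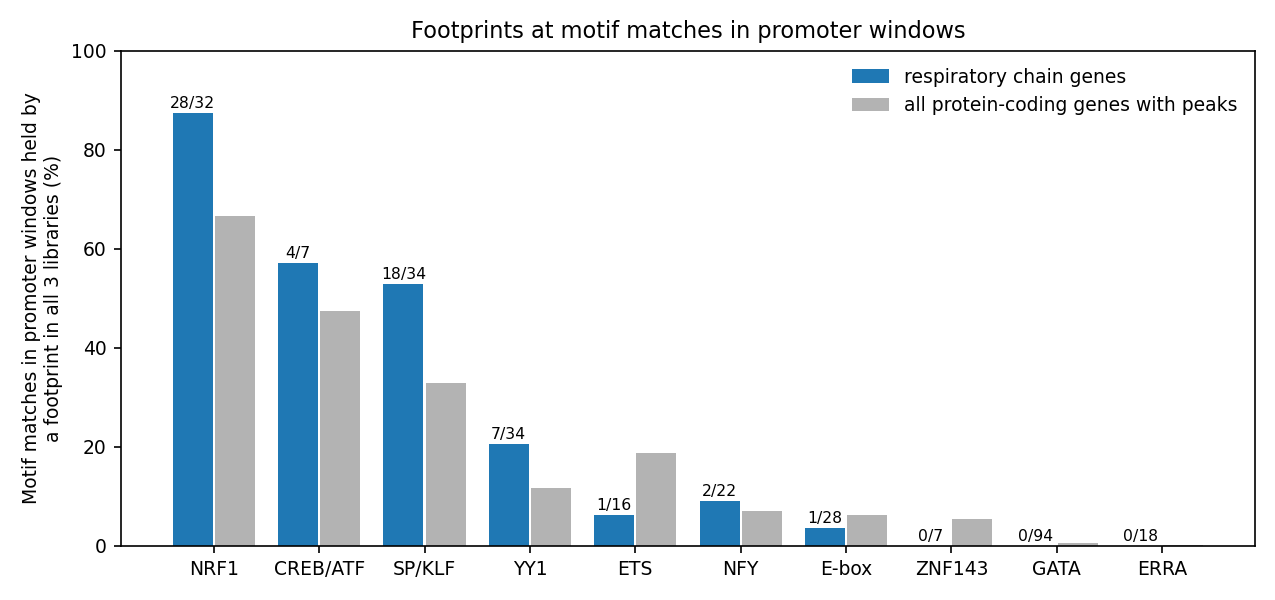
Share of motif matches in promoter windows that lay in a footprint in all 3 libraries (vertical axis, in percent, from 0) for each of 10 motifs, at the 83 open members (blue, with the counts above) and at all 11223 open protein-coding genes (grey). NRF1 has the highest share in both, with 28 of 32 matches at the members. The members lie below the open genes at large for ETS and E-box, with 1 match each in such footprints. For ZNF143, GATA and ERRA they have 0 of 7, 94 and 18 matches. The open genes have 5.42%, 0.452% and 0.161% for these motifs, so counts of 0 set no difference.

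The members resembled other large assemblies that cells need throughout. Of the mitochondrial ribosomal protein genes 77 of 78 were open in every library, with a median percentile of 74.0 ± 2.74 (SD, n = 3). Of the proteasome subunit genes 37 of 40 were, with a median percentile of 79.2 ± 2.68. The respiratory chain genes, at 79.98 ± 0.381, were above the mitochondrial ribosomal genes in each library. They were above the proteasome genes in replicates 1 and 2 and below them in replicate 3.

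Other genes of the pathway, from a list that the symbol rule does not reach, were open as well. All 4 genes of complex II, succinate dehydrogenase, had a peak in all 3 libraries, at mean percentiles between 80.5 for Sdhd and 95.5 for Sdha. Cycs, the somatic cytochrome c that carries electrons from complex III to complex IV, had signals of 7.32, 27.1 and 21.6 (percentile 98.2 ± 0.571). Cyct, the testis cytochrome c, had no promoter peak in any library. Of 32 assembly factors with other symbols, 31 were open throughout, and the exception, Sdhaf1, had 1 peak in replicate 3 with a signal of 0.478.

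Among 13 regulators of mitochondrial genes, 12 were open throughout, with 51.4% of all genes as background. Nrf1 had signals of 2.92, 7.03 and 2.56 (percentile 69.6 ± 4.54) and Esrra, the gene of ERRA, had 11.4, 41.9 and 35.7 (percentile 99.9). Gabpa had 2.72, 8.10 and 6.84, the same peak as Atp5j. Ppargc1a, the coactivator known for raising mitochondrial gene expression in muscle and brown fat, was without a peak in replicate 1 and reached 0.250 in replicate 2 and 0.346 in replicate 3.

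Distal open regions were counted around each gene. Within 50000 bp, a median of 1 open region found in all 3 libraries and over 1000 bp from any TSS was counted per member, with a mean of 1.39, and 36 of the 89 had none. All genes had a median of 0 and a mean of 1.00, and 11229 of the 21827 had none. Mitochondrial ribosomal protein genes and proteasome subunit genes also had a median of 1, with means of 1.14 and 1.25. Cox4i2, a restricted isoform with a promoter peak in replicate 2 alone, had the most of any member, 7.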

How the data were processed

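DNase-seq of 3 mouse liver libraries (1 group) was used from peak, footprint and false discovery rate lists in mm10, per the labels. Peak calling used each library alone, with no pooling, per a deposited text file. Which caller was used, and its version, is not given in the sources used here. Peak signal is the authors' deposited value, scaled per library in a way the files do not state. The false discovery rate (an adjusted p-value or q-value per interval) is deposited up to 0.05. Deposited footprints carry the constant 0.01 in a column of no stated meaning, and the depth in reads is unknown, so no counting interval is given.

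Of the 2 peak lists per library, the one with more rows was used. Promoters took every coding TSS of GENCODE M21 (basic), 1000 bp either side, with an overlap of at least 1 bp. Genes sharing a symbol were pooled. Python 3.11.15, numpy 2.4.6, scipy 1.17.1, pysam 0.24.0 and bedtools 2.31.1 were used, and the counting was tested on simulated data. Motif matches on either strand were sought in footprints with 5 bp added on each side and in 300 bases at the most upstream TSS. With 1 group, no test between groups was possible.

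The members, lists and motifs were chosen with earlier results of these data known. Values in every library are given for the 3 highest and 3 lowest members of each role, taking complex I as 1 role, every member without a peak in a library, the paralogs, and the 10 highest members. Genes named for motif matches, partners or CpG counts, comparisons among genes open in all 3 libraries, and genes said to be so, were chosen after their values were seen. Alternatives were the stricter list, equal numbers of peaks, other windows, TSS choices, overlaps and footprint extensions, each library left out, and, added after the data were seen, peaks given to the nearest TSS. Values of 1 member and of 1 partner gene are counted but not reported here by name.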

Additional observations from a re-analysis of the deposited data

How the results depend on the processing

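The count of members open in all 3 libraries was 83 with the stricter list, equal numbers of the strongest peaks (34369 per library), the most upstream TSS alone, the peak midpoint, or any library left out. Leaving a library out could not lower this count. It was 82 with 500 bp and 84 with 2500 bp either side, where the restricted isoforms rose from 2 to 3, and 69 with peaks given to the nearest TSS. The median percentile of 79.98 became 80.6 with the most upstream TSS alone and 80.5 with peaks given to the nearest TSS, both beyond its SD over libraries; the cause was not tested. Members with an NRF1 match in footprints of all 3 libraries kept within 1.5 times of 22 under all alternatives run, though leaving a library out could not lower that count.

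Counts for rarer motifs moved. A longer extension, a longer window or fewer libraries required can only add members, so the direction of these moves was fixed in advance. The cause of their size was not tested. With no extension of footprints, ETS gave 0 members, YY1 3, NFY 1 and ZNF143 0, and with 10 bp ETS gave 4, YY1 10, E-box 2 and ZNF143 2. With 1 library left out, ETS ranged from 2 to 4, YY1 from 7 to 14 and E-box from 1 to 3, the highest without replicate 1 each time. In 500 bp either side of the TSS, in place of 300 bases, matches were found at 11 members for ETS (12.4%, against 7.26% of all genes), 30 for YY1 (33.7% against 10.8%), 19 for SP/KLF (21.3% against 23.7%), 14 for NFY (15.7% against 14.6%), 14 for E-box (15.7% against 17.0%), 22 for GATA (24.7% against 29.9%) and 8 for ERRA (8.99% against 1.80%). These shares stand beside all genes and not beside genes open in all 3 libraries. No paired analysis was possible because the libraries form 1 group. Read depth is unknown, and peak numbers differ between libraries, so a promoter without a listed peak is not shown to be closed.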

Other observations

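The 3 members on the X chromosome, Ndufb11, Ndufa1 and Cox7b, were all in the lower part of the 83 open genes, a grouping made after the values were seen. Ndufb11 had signals of 1.46, 5.21 and 4.13, at percentiles of 58.3, 66.6 and 71.1. No listed peak was nearest to its own TSS, which lies 3 bp from that of Rbm10. The median percentile of the 3 was 57.7, 61.9 and 66.4 in replicates 1, 2 and 3, and that of the 80 open autosomal members was 81.7, 81.4 and 81.2. The same held for X-linked genes at large: the 336 X-linked protein-coding genes open in all 3 libraries had medians of 58.5, 63.5 and 66.4, and the 10883 autosomal ones 74.9, 74.8 and 74.6. The sex of the embryos was not recorded, per the labels, and its part in these values was not tested.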
